A study of Mus musculus with 12 samples.

Results

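Haem is built by a chain of enzymes that starts and ends in the mitochondrion. The chain was followed here through 9 genes, found by symbol among the 21004 genes of a deposited mouse spleen table. They are Alas1, Alas2, Alad, Uros, Urod, Cpox, Ppox and Fech, which encode enzymes of the chain, and Slc25a37, which encodes the mitochondrial iron importer mitoferrin-1. The spleens came from ICR mice of 8 weeks, in 4 groups of 3 libraries. The groups were busulfan with L.J. at 10 mg/kg, busulfan alone, L.J. alone at 10 mg/kg, and control. Busulfan is an alkylating drug that damages dividing cells, blood-forming cells among them. The series title asks whether L.J. counters that damage. The labels spell out neither L.J. nor FMT, which the design text names, and give no busulfan dose, no control vehicle and no time of collection.

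The enzyme ALAS joins glycine and succinyl-CoA into 5-aminolaevulinate and sets the pace of the chain. Most cells use ALAS1 and developing red cells use ALAS2, and ferrochelatase, the product of Fech, puts iron into the finished ring. The mouse spleen makes red cells through adult life, and its red pulp macrophages take old red cells apart, so both the making and the breakdown of haem take place there. In whole-spleen RNA, fewer cells of a type and less RNA per cell cannot be told apart.

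Sequences are shown for Alas2, which had the largest upward difference of the 9 with both agents against busulfan, and for Cpox, against which its level is given as a ratio. Alas2 messenger RNA carries an iron-responsive element, a hairpin near its start through which iron regulatory proteins block translation when iron is short. It was found in the 5′ untranslated region at chrX:150547461-150547483, plus strand, of GRCm38 in the GENCODE M21 annotation. The capitals mark the 6-base loop. Messenger RNA levels do not show the block.
Alas2 iron-responsive element: gttcgtcctCAGTGCagggcaac

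The hexamer AGATAA, its variant AGATAG, the related hexamer TGATAA and its own variant TGATAG, all forms of the motif bound by the red-cell factor GATA1, were searched on both strands in the 250 bases before RefSeq starts. RefSeq promoter windows were found for 7 of the 9 genes, all but Fech and Slc25a37, and some genes have more than 1 start. A motif lay in 3 of their 10 windows (30.0%), against 8718 of 32851 windows of all genes (26.5%), so the share was near that of all genes. The 3 windows belong to Alas2, Cpox and 1 of the starts of Uros. Bases -150 to -51 before the start are shown for Alas2 at chrX:150547267-150547366 and for Cpox at chr16:58670058-58670157, both on the plus strand of GRCm38.p6. The capitals mark the motifs, which read on the other strand, and those of Cpox overlap by 1 base. A match describes letters and is no measure of binding.
Alas2 promoter: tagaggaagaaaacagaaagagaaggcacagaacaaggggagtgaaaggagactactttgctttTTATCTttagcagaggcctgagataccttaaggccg
Cpox promoter: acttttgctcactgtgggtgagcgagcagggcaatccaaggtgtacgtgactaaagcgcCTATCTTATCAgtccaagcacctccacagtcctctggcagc

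Some libraries stood apart before any comparison. Of the summed FPKM, pancreatic acinar genes held 10.8% in busulfan library 1, 1.00% in busulfan 2, 1.28% in L.J. 3, and less than these in the other 9 libraries. Of the acinar genes, Amy2a5, an amylase, was at 19030, 1484 and 55.8 FPKM in busulfan libraries 1 to 3, against 0, 0 and 0.25 FPKM in controls. The mean log2 level of 31 erythroid marker genes, called the erythroid score below, was 4.82, 6.45 and 6.10 in busulfan libraries, and between 5.87 and 6.84 in the other 9. The hepatocyte score, over 15 genes, was 1.43 ± 0.13 in busulfan with L.J., 1.30 ± 0.31 in busulfan, 1.66 ± 0.09 in L.J. and 2.61 ± 0.60 in control (SD, n = 3 each), and its part in differences from control was not tested. The spleen B cell gene Cd79a was between 649 and 1884 FPKM in the 12 libraries. Of 12 B cell genes, 11 were higher and Cd79a lower in busulfan with L.J. than in busulfan, with a median log2 difference of 0.57 and 2 past the test, both higher. Leaving out busulfan library 1 gave the same counts, with a median of 0.45. All 12 were lower in busulfan than in control, with a median of -0.69 and none past the test. Each had an unadjusted p under 0.05, where 6.48% of all genes were lower at that level. Without busulfan library 1 all 12 were again lower, with a median of -0.59 and none past the test. There 8 had an unadjusted p under 0.05, where 498 of 13079 genes were lower at that level. The part of this shift in the results below was not tested. For comparisons that involve busulfan alone, the fitted values of the 9 genes and the counts of gene lists are also given without busulfan library 1. FPKM scales fragments by transcript length and by library size, so levels of different genes can be compared on it.

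With both agents, against busulfan alone, 8 of the 9 genes stood higher and Alas1 lower, where 56.9% of all genes tested were higher. None of the 9 passed the limma test at an adjusted p of 0.05. The largest differences upward were those of Alas2, the red-cell entry enzyme, of Alad and of Fech, at 1.07, 1.01 and 0.89 on the log2 scale. Without busulfan library 1, 6 of the 9 stood higher, where 56.2% of all genes did, and Cpox and Slc25a37 joined Alas1 on the lower side.

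Alas1, the entry enzyme of most cells (gene 11655, chromosome 9, 106233455 to 106247954), was the weakest of the 9 in controls. Its level was 10.9, 9.60 and 11.2 FPKM in busulfan with L.J., and 60.8, 21.6 and 10.9 FPKM in busulfan. L.J. libraries had 12.1, 11.5 and 10.5 FPKM, and controls 10.5, 10.2 and 14.4 FPKM. Busulfan libraries 1 and 2 were the only ones above 14.4 FPKM, while busulfan 3 lay among the controls. The log2 difference was -1.14 (SE 0.43, limma adjusted p = 0.157) for busulfan with L.J. against busulfan. Busulfan against control gave 1.02 (SE 0.43, limma adjusted p = 0.380). Without busulfan library 1 these were -0.51 (limma adjusted p = 0.186) and 0.38. With the acinar score as a covariate they were -0.16 and -0.12, so the sign against control turned. Leaving out the 3 libraries of highest acinar score (busulfan 1, busulfan 2 and L.J. 3) keeps busulfan 3 as the only library of its group, and gave -0.04 and -0.08.

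The libraries with high Alas1 were also those with high acinar and neutrophil marker levels. The neutrophil score, a mean log2 level of 19 genes, was 4.31, 3.88 and 3.29 in busulfan with L.J., and 8.87, 7.68 and 4.63 in busulfan. It was 4.37, 4.86 and 4.23 in L.J. and 4.05, 3.65 and 3.58 in control. The acinar score, over 34 genes, was 8.80, 5.31 and 1.99 in busulfan, 3.65, 1.55 and 6.03 in L.J., and between 0.31 and 2.21 in the other libraries. L.J. 3, with the second highest acinar score, had 10.5 FPKM of Alas1. All 19 neutrophil genes and all 34 acinar genes had lower means in busulfan with L.J. than in busulfan, and 3 neutrophil genes passed the test. Leaving out busulfan library 1, 19 of 19 neutrophil genes and 30 of 31 tested acinar genes were lower, and 3 neutrophil genes passed. The part of these cells in the level of Alas1 was not tested.

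**Figure D1:**
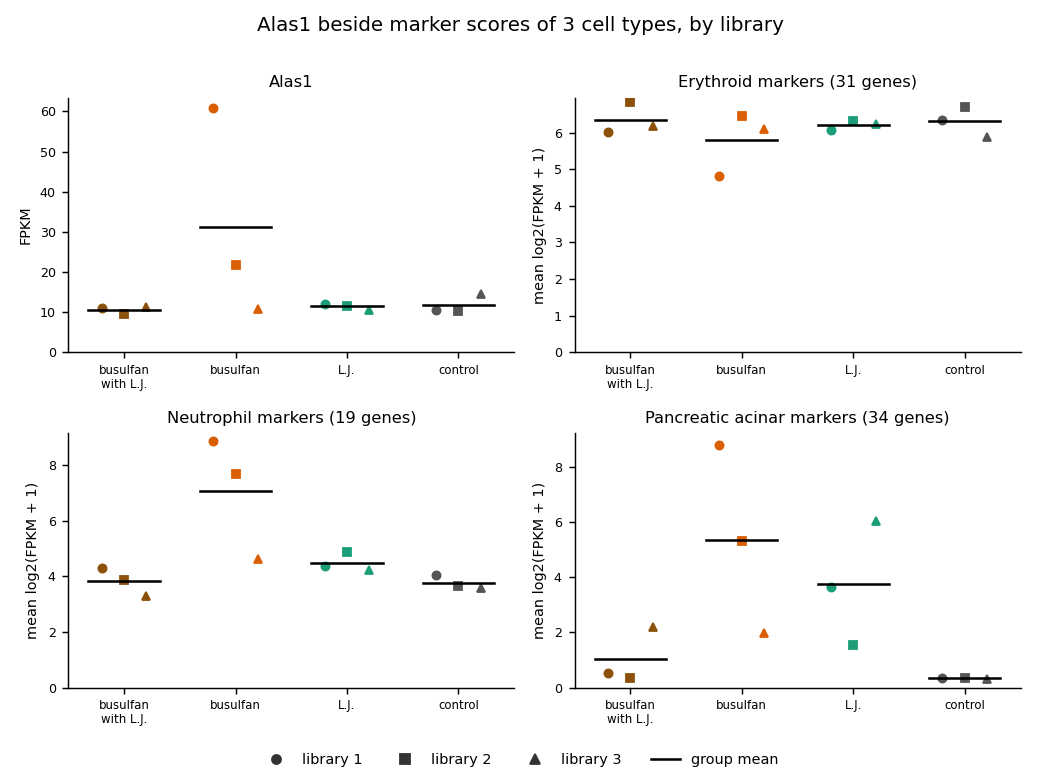
Alas1 in FPKM, and the mean log2(FPKM + 1) of erythroid, neutrophil and pancreatic acinar marker genes, for each of the 12 libraries by group; symbols give the library number and lines the group means. Alas1 was at 60.8 and 21.6 FPKM in busulfan libraries 1 and 2, which also had the highest neutrophil scores, 8.87 and 7.68.

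Alas2, the entry enzyme of red cells (gene 11656, chromosome X, 150547417 to 150570622), was among the strongest of the 9 genes. It was at 380.4, 656 and 373 FPKM in busulfan with L.J., and at 126, 272 and 289 FPKM in busulfan. L.J. libraries had 272, 339 and 339.6 FPKM, and controls 293, 338 and 195 FPKM. All 3 libraries given both agents lay above the 9 others, and how many of all genes did so was not counted. The log2 difference between busulfan with L.J. and busulfan was 1.07 (SE 0.33, limma adjusted p = 0.0976), and 0.69 without busulfan library 1 (SE 0.27, limma adjusted p = 0.137). Against control, busulfan with L.J. gave 0.76 (SE 0.33, limma adjusted p = 0.250) and busulfan alone gave -0.32 (limma adjusted p = 0.689). The value for busulfan alone against control turned to 0.06 without busulfan library 1. Alas2 lies wholly inside the annotated span of Apex2, a DNA repair gene on the other strand, and the handling of strand is not given in the sources used here. Apex2 was between 7.74 and 14.03 FPKM in the 12 libraries.

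Alad makes porphobilinogen in the cytosol (gene 17025, chromosome 4, 62505984 to 62520063). It was at 177, 261 and 196 FPKM in busulfan with L.J., and at 91.3, 87.6 and 136 FPKM in busulfan. L.J. libraries had 147, 228 and 156 FPKM, and controls 139.8, 194 and 138 FPKM. Each busulfan library lay below every library of the other 3 groups, busulfan 3 by a small margin. How many of all genes did so was not counted. The log2 difference between busulfan with L.J. and busulfan was 1.01 (SE 0.23, limma adjusted p = 0.0550), the nearest to the threshold of 0.05. It was 0.93 without busulfan library 1 (SE 0.26, limma adjusted p = 0.0597). Busulfan against control gave -0.59 (SE 0.23, limma adjusted p = 0.354), and -0.50 without that library.

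Uros closes the tetrapyrrole ring into uroporphyrinogen III (gene 22276, chromosome 7, 133686142 to 133710467), and Urod turns it into coproporphyrinogen III (gene 22275, chromosome 4, 116989965 to 116994436). Uros averaged 39.0 ± 11.7 FPKM in busulfan with L.J., 28.2 ± 10.1 in busulfan, 37.2 ± 6.7 in L.J. and 33.9 ± 6.8 in control (SD, n = 3 each). Urod averaged 99.1 ± 26.3, 73.3 ± 29.7, 93.3 ± 2.9 and 99.5 ± 22.0 FPKM in the same groups. For both genes the 4 groups overlapped, with busulfan library 1 lowest of the 12 at 17.9 and 44.1 FPKM. The log2 differences between busulfan with L.J. and busulfan were both 0.48, with limma adjusted p of 0.319 for Uros and 0.323 for Urod. They were 0.20 and 0.16 without busulfan library 1 (limma adjusted p of 0.646 and 0.689). Against control, busulfan gave -0.30 for Uros and -0.50 for Urod, and -0.02 and -0.18 without that library.

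Cpox makes protoporphyrinogen IX between the mitochondrial membranes (gene 12892, chromosome 16, 58670208 to 58680391). It was at 96.6, 182 and 120.5 FPKM in busulfan with L.J., and at 45.7, 184 and 159 FPKM in busulfan. L.J. libraries had 159, 128 and 137 FPKM, and controls 189, 235 and 143 FPKM. Controls had the highest mean, and the groups overlapped. On the log2 scale, busulfan with L.J. differed from busulfan by 0.22 (SE 0.44, limma adjusted p = 0.808), which turned to -0.41 without busulfan library 1. Against control it gave -0.53 (SE 0.44, limma adjusted p = 0.519), the opposite sign to Alas2, but neither passed the test. Busulfan alone differed from control by -0.74 (limma adjusted p = 0.509), and -0.11 without busulfan library 1.

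Ppox, which oxidises that product to protoporphyrin IX (gene 19044, chromosome 1, 171276991 to 171281193), was at 38.3, 56.8 and 35.6 FPKM in busulfan with L.J. and at 24.1, 36.4 and 27.3 FPKM in busulfan. In L.J. it was at 35.3, 52.5 and 47.9 FPKM, and in control at 38.1, 34.6 and 29.5 FPKM. Only busulfan library 2 reached into the range of busulfan with L.J. The log2 difference was 0.55 (SE 0.21, limma adjusted p = 0.161) for busulfan with L.J. against busulfan, and 0.42 without busulfan library 1 (limma adjusted p = 0.248). Set against control, busulfan alone gave -0.23, and -0.10 without it. L.J. against control gave 0.39 (SE 0.21, limma adjusted p = 0.556), the widest of the 9 in that comparison after Cpox, which gave -0.40.

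Fech encodes ferrochelatase, the last enzyme (gene 14151, chromosome 18, 64456542 to 64489098). It was at 146, 257 and 151 FPKM in busulfan with L.J., and at 55.2, 129 and 123.5 FPKM in busulfan. L.J. libraries had 101, 136 and 137 FPKM, and controls 135, 177 and 81.7 FPKM. Busulfan with L.J. lay above busulfan and above L.J. in every library, and overlapped control through control 2. The log2 difference from busulfan was 0.89 (SE 0.36, limma adjusted p = 0.180), and 0.49 without busulfan library 1. Busulfan against control gave -0.38, which turned to 0.01 without that library.

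Slc25a37, the iron importer that feeds ferrochelatase in red cells (gene 67712, chromosome 14, 69241848 to 69285544), had the highest mean of the 9 in control. It was at 225, 396 and 239 FPKM in busulfan with L.J., and at 89.8, 353 and 298 FPKM in busulfan. L.J. libraries had 265, 334 and 259 FPKM, and controls 371, 451 and 241 FPKM. Those groups overlapped in each comparison. The log2 difference between busulfan with L.J. and busulfan was 0.39 (SE 0.44, limma adjusted p = 0.634), and -0.23 without busulfan library 1. For busulfan against control it was -0.70 (limma adjusted p = 0.534), or -0.08 without it. Slc25a28, which encodes mitoferrin-2, the iron importer of other cells, was at 27.2 ± 1.4 FPKM in busulfan with L.J., 24.0 ± 5.9 in busulfan, 24.1 ± 1.2 in L.J. and 23.6 ± 1.6 in control (SD, n = 3 each).

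**Figure D2:**
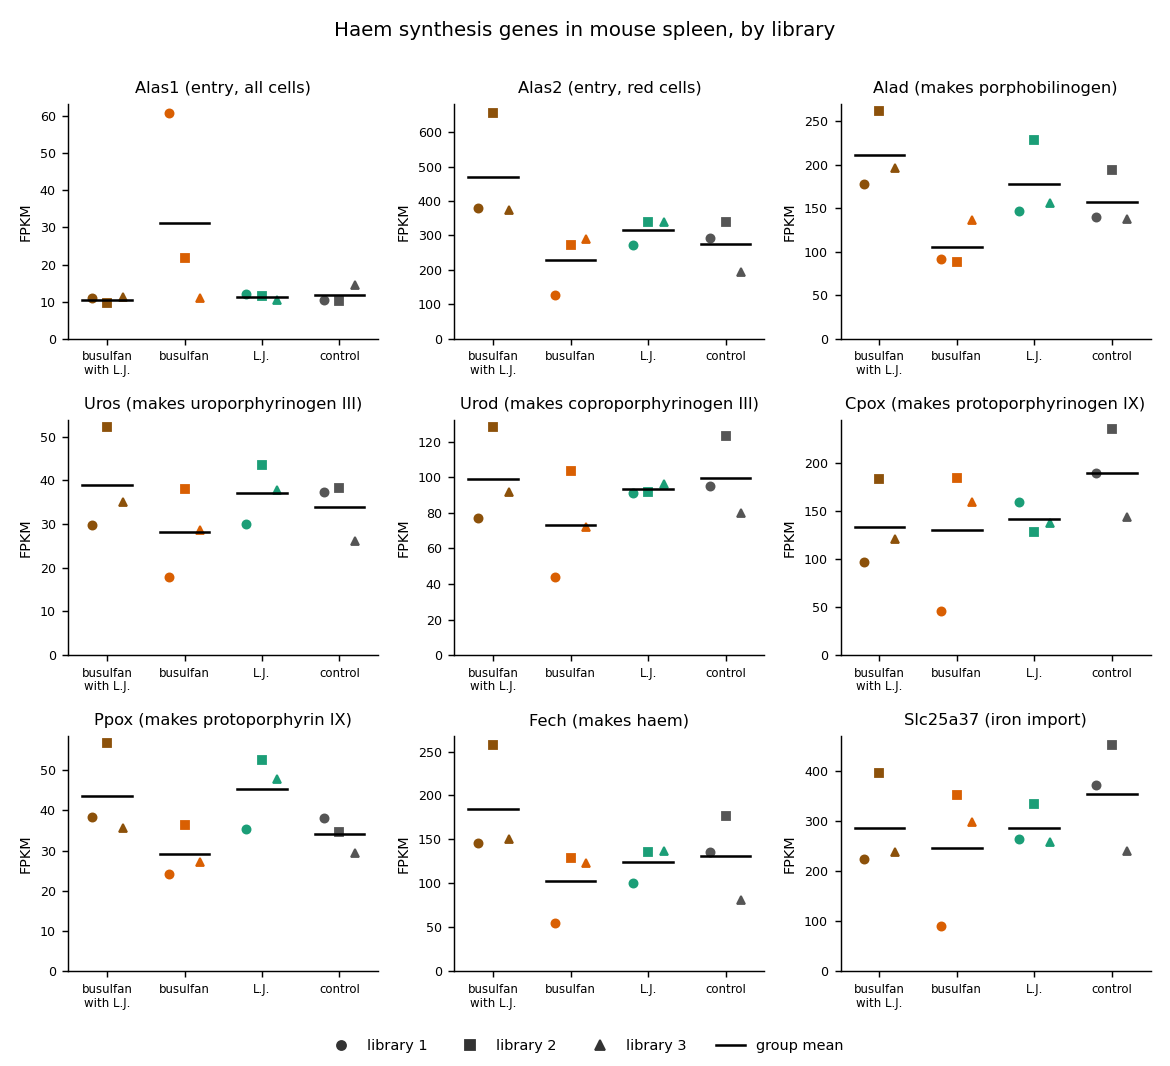
FPKM of the 9 genes in each of the 12 libraries by group; symbols give the library number and lines the group means, and each axis starts at 0. Alas2 was above 372 FPKM in all 3 libraries of busulfan with L.J. and at most 339.6 FPKM elsewhere, while Cpox and Slc25a37 had their highest means, 189 and 355 FPKM, in control.

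The order of the levels differed between groups. By mean FPKM, the order in busulfan with L.J. was Alas2 (469.9), Slc25a37 (286), Alad (211), Fech (185), Cpox (133), Urod (99.1), Ppox (43.5), Uros (39.0) and Alas1 (10.6). In control it was Slc25a37 (355), Alas2 (275), Cpox (189), Alad (157), Fech (131), Urod (99.5), Ppox (34.1), Uros (33.9) and Alas1 (11.7). Alas2 stood above Slc25a37 in all 3 libraries given both agents, with ratios of 1.69, 1.66 and 1.56, and below it in all 3 controls, with ratios of 0.79, 0.75 and 0.81. The ratio was 1.03, 1.02 and 1.31 in L.J., and 1.41, 0.77 and 0.97 in busulfan. Alas2 therefore also stood above Slc25a37 in each L.J. library and in busulfan library 1. Neighbours such as Alad and Fech, or Ppox and Uros, were closer than the spread between libraries in both groups.

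No member passed the test in any of the 6 comparisons by limma, with Benjamini-Hochberg adjustment over the 13138 genes tested. For busulfan with L.J. against busulfan, 1.66% of all genes passed. At an unadjusted p under 0.05, Alas2, Alad, Ppox and Fech stood higher, 4 of 9 where 13.8% of all genes did, and Alas1 stood lower, 1 of 9 where 9.4% did. The groups did not overlap for Alas2, Alad and Fech, 3 of 9 where 14.1% of all genes were higher in this way. The median log2 difference of the 9 was 0.48, against 0.05 over all genes tested. Without busulfan library 1, 0 of 9 passed where 5.77% of all genes did. Alas2 and Alad stood higher at an unadjusted p under 0.05, 2 of 9 where 2137 of 13079 genes did. The median of the 9 was 0.20, against 0.05 over all genes in that fit. In that fit the same 3 genes were higher without overlap, where 25.7% of all genes were. Calls depended on the libraries used. Without busulfan library 3, Alas1 (-1.70), Alas2 (1.28) and Alad (1.21) passed, with limma adjusted p of 0.0120, 0.0455 and 0.0122, 3 of 9 where 10.4% of all genes passed. Alad also passed with quantile normalization (limma adjusted p = 0.0439), where 2.29% of all genes did, and with scaling without acinar and globin genes (limma adjusted p = 0.0347), where 5.97% did.

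For busulfan against control 0 of 9 passed where 0.0304% of all genes did. There 1 of 9 was higher at an unadjusted p under 0.05, which was Alas1, where 5.72% of all genes were, and 1 was lower, which was Alad, where 6.48% were. Alad was also the 1 member whose groups did not overlap, being lower, as for 7.31% of all genes. The median there was -0.38, against -0.03 over all genes, and -0.08 without busulfan library 1. Without busulfan library 3, which held the lowest Alas1 of that group, Alas1 passed at 1.57 (limma adjusted p = 0.0212), 1 of 9 where 6.27% of all genes passed.

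**Figure D3:**
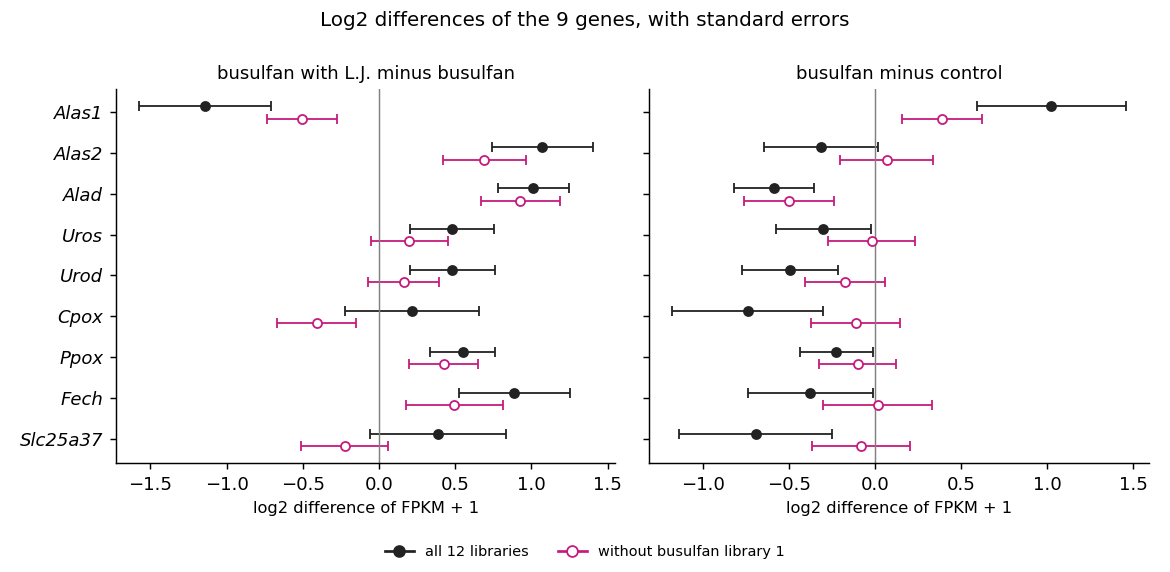
Log2 differences with standard errors for the 9 genes, in busulfan with L.J. minus busulfan on the left and busulfan minus control on the right; filled points use all 12 libraries and open points leave out busulfan library 1. Without that library Cpox turned from 0.22 to -0.41 and Slc25a37 from 0.39 to -0.23 on the left, while Alad stayed near 1 (1.01 and 0.93).

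L.J. against control, the effect of L.J. without busulfan, gave 0 of 9 members past the adjusted threshold, where 0.0304% of all genes passed, and 0 at an unadjusted p under 0.05, where 8.91% did. The 9 differences ran from -0.40 to 0.39 with a median of -0.02. Busulfan with L.J. against L.J. asks what busulfan added in mice given L.J. Here 0 of 9 passed, where 0% of all genes did, and 0 had an unadjusted p under 0.05, where 5.61% did. Alas2 and Fech did not overlap between these groups, 2 of 9 where 7.76% of all genes were higher in this way, with log2 differences of 0.52 and 0.53 (limma adjusted p = 0.925 and 0.928).

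Busulfan with L.J. against control gave 0 of 9 past the adjusted threshold, where 0.0609% of all genes passed. Alas2 was the 1 member with an unadjusted p under 0.05, where 19% of all genes had one, and the 1 whose groups did not overlap, where 19.4% were higher in this way. The interaction, which asks whether L.J. acted differently with and without busulfan, gave 0 of 9 where 0% of all genes passed. Alad was the 1 member with an unadjusted p under 0.05, where 11.5% of all genes had one, at 0.85 (SE 0.33, limma adjusted p = 0.353). The interaction values of Alas2, Fech and Alas1 were 0.84, 0.91 and -1.12, with limma adjusted p from 0.510 to 0.519. The interaction without busulfan library 1 was 0.76 for Alad (limma adjusted p = 0.456), 0.46 for Alas2, 0.51 for Fech and -0.48 for Alas1. These comparisons share groups, so their values are not independent of each other.

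Red-cell precursors are a main source of haem gene RNA, so levels were also set against the erythroid score by subtracting it from log2(FPKM + 1). That score averaged 6.35 ± 0.44 in busulfan with L.J., 5.79 ± 0.86 in busulfan, 6.22 ± 0.12 in L.J. and 6.30 ± 0.41 in control (SD, n = 3 each). It includes Klf1, a red-cell transcription factor gene, at 102 ± 28 FPKM in busulfan with L.J., 71.0 ± 37.9 in busulfan, 96.3 ± 17.1 in L.J. and 88.8 ± 24.4 in control (SD, n = 3 each). None of the 31 markers passed the test in any of the 6 comparisons. For busulfan with L.J. against busulfan 28 were higher and 3 lower, with a median of 0.61, and 7 had an unadjusted p under 0.05, all higher. With busulfan library 1 left out, 18 were higher and 13 lower with a median of 0.12, and 2 were higher and 2 lower at an unadjusted p under 0.05.

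Relative to this score, Alas2 was at 2.55, 2.52 and 2.37 log2 units in busulfan with L.J., and at 2.18, 1.64 and 2.08 in busulfan. It was at 2.01, 2.08 and 2.17 in L.J. and at 1.85, 1.71 and 1.74 in control. The 3 libraries given both agents lay above the 9 others, and the 3 controls below the L.J. libraries. Fech was at 1.18, 1.17 and 1.06 in busulfan with L.J., at 1.00, 0.58 and 0.86 in busulfan, at 0.59, 0.77 and 0.87 in L.J., and at 0.75, 0.78 and 0.50 in control. Its libraries given both agents also lay above the 9 others. For neither gene was the share of all genes that lay above all 9 counted.

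Cpox and Slc25a37 showed the other pattern. Cpox relative to the score was at 0.59, 0.67 and 0.74 in busulfan with L.J., against 1.23, 1.19 and 1.30 in control. Slc25a37 was at 1.80, 1.79 and 1.73 in busulfan with L.J., against 2.20, 2.13 and 2.05 in control. Both genes in busulfan alone ranged across these values, with busulfan library 1 lowest at 0.73 and 1.69. In L.J. alone, Cpox was at 1.24, 0.68 and 0.86 and Slc25a37 at 1.97, 2.06 and 1.78. L.J. library 2 for Cpox and L.J. library 3 for Slc25a37 thus lay inside the range of busulfan with L.J. Urod differed least between the 4 group means, which ran from 0.26 to 0.34.

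Counted in this way, Alas2 and Fech did not overlap between busulfan with L.J. and busulfan, 2 of 9 where 0.137% of all genes were higher. Subtracting the low score of busulfan library 1 lifts every other gene in that library, which makes such a result rarer among all genes. The share also fell for busulfan with L.J. against L.J., from 7.76% before subtraction to 0.251% after it. Subtraction adds the spread of the score to genes that do not follow it. The share of all genes is thus no even measure for red-cell genes. Among the 31 markers themselves, 6 were higher and 3 lower without overlap. Without busulfan library 1, 5 of 9 were higher (Alas2, Alad, Uros, Ppox and Fech) where 2.14% of all genes were, and Cpox and Slc25a37 lower, where 8.72% were, beside 10 markers higher and 8 lower. Against L.J., Alas2 and Fech were higher without overlap, 2 of 9 where 0.251% of all genes were, beside 5 markers higher and 4 lower. Against control, Alas2 and Fech were higher, 2 of 9 where 1% of all genes were, and Cpox and Slc25a37 lower, 2 of 9 where 2% were, beside 6 markers higher and 7 lower. L.J. against control had Alas2 and Ppox higher, 2 of 9 where 5.06% of all genes were. Of the markers there, 5 were higher and 4 lower.

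**Figure D4:**
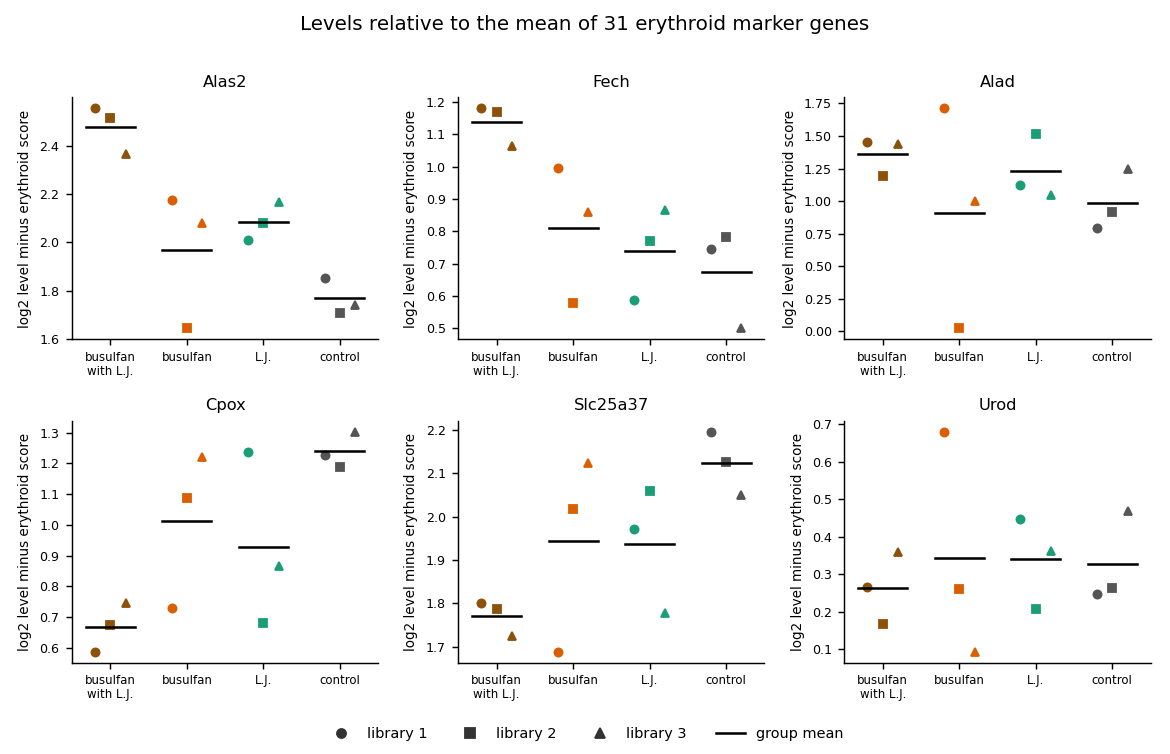
Log2(FPKM + 1) minus the erythroid score, a mean over 31 marker genes, for 6 of the 9 genes in each library by group; symbols give the library number and lines the group means, and axes do not start at 0. Alas2 was between 2.37 and 2.55 and Fech between 1.06 and 1.18 in busulfan with L.J., above all other libraries, while Cpox was at most 0.74 there and at least 1.19 in control.

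The FPKM ratio of Alas2 to Cpox needs no marker score. It sets a gene that was higher relative to the score than in control over one that was lower, in these same libraries. The ratio is thus no separate evidence, and how many other gene ratios separate the groups in this way was not counted. It was 3.94, 3.60 and 3.10 in busulfan with L.J., and 2.76, 1.48 and 1.82 in busulfan. It was 1.72, 2.65 and 2.48 in L.J., and 1.55, 1.44 and 1.36 in control. The ratio was highest in the 3 libraries given both agents, and each L.J. library lay above each control. The ratio of Alas2 to Alas1, the red-cell form over the form of most cells, was 34.8, 68.4 and 33.4 in busulfan with L.J., and 2.08, 12.6 and 26.6 in busulfan. It was 22.5, 29.4 and 32.3 in L.J., and 27.9, 33.2 and 13.5 in control, so control 2 nearly reached the libraries given both agents.

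A fit with the erythroid score as a covariate was chosen after seeing the data. The score is itself a readout of the same libraries. In that fit Alas2 passed the test for busulfan with L.J. against busulfan, at 0.60 (SE 0.14, limma adjusted p = 0.0446), and it was the only member that did, 1 of 9 where 3.41% of all genes passed. With busulfan library 1 also left out, Alas2 gave 0.62 (limma adjusted p = 0.0308) and Alad 0.89 (limma adjusted p = 0.0457), 2 of 9 where 9.69% of all genes passed. That second fit, for busulfan with L.J. against control, gave Alas2 at 0.71 (limma adjusted p = 0.0444) and Cpox at -0.56 (limma adjusted p = 0.0483), 2 of 9 where 3.71% of all genes passed. Over 27 alternative settings, the adjusted p of Alas2 ran from 0.0308 to 0.501 against busulfan and from 0.0444 to 0.539 against control. That of Alad against busulfan ran from 0.0122 to 0.303, and that of Cpox against control from 0.0483 to 0.792.

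The 9 genes did not vary as one block across the 12 libraries. Pearson correlations of log2(FPKM + 1) are given as descriptions, over libraries that share group, tissue makeup and unknown depth. Among the 28 pairs without Alas1, r ran from 0.33 to 0.97 with a median of 0.77, and from -0.17 to 0.94 with a median of 0.61 without busulfan library 1. Alas2 and Fech had r = 0.97, and 0.94 without that library. Cpox and Slc25a37 had r = 0.95, and 0.85 without it. Alas2 and Cpox had r = 0.57, and -0.01 without it. Alas1 ran against the other 8, with r from -0.79 to -0.58, and from -0.77 to 0.07 without busulfan library 1.

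Of all other genes tested, the 5 most like Alas2 over the 12 libraries were Mkrn1, Ppm1d, Cnnm2, Ibtk and Rab3il1, with r from 0.97 to 0.99. Fech ranked at place 6 of 13137. Without busulfan library 1 the r of those 5 genes ran from 0.94 to 0.98. Mkrn1, the gene of a RING finger protein, was at 111, 163 and 116 FPKM in busulfan with L.J., 57.7, 90.6 and 99.2 in busulfan, 97.4, 117 and 111 in L.J., and 98.5, 111 and 79.0 in control. After the group means were removed, the 5 most like Alas2 were Isg20, Epb42, 1300017J02Rik, Ncoa7 and Mkrn1, with r from 0.991 to 0.997, and Fech ranked at place 7. With group means kept and busulfan library 1 left out, r was 0.73 for Ncoa7 and at least 0.91 for the others. Epb42, the gene of a red-cell membrane protein, was itself 1 of the 31 markers, at 57.0 ± 26.2 FPKM in busulfan with L.J., 27.5 ± 13.7 in busulfan, 39.1 ± 7.9 in L.J. and 39.8 ± 13.4 in control (SD, n = 3 each).

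Of 18 tested genes for other steps of haem and porphyrin transport, 15 were higher and 3 lower in busulfan with L.J. than in busulfan, with a median of 0.12, and none passed the test. Of all genes tested, 56.9% were higher. At an unadjusted p under 0.05 there were 2, both higher. When busulfan library 1 was left out, 10 were higher and 8 lower, with a median of 0.04, and 4 were higher and 1 lower at an unadjusted p under 0.05, with none past the test. Abcg2, a porphyrin exporter, was at 24.0 ± 7.0 FPKM in busulfan with L.J. and 14.97 ± 4.42 in busulfan (SD, n = 3 each), a difference of 0.65 on the log2 scale. Pgrmc1, a haem-binding partner of ferrochelatase, gave 0.29 and Flvcr1, a haem exporter, 0.23. The limma adjusted p of these 3 genes ran from 0.193 to 0.301. Their differences were 0.46, 0.39 and 0.30 without busulfan library 1. Slc25a38, the mitochondrial glycine carrier, gave 0.12 and Abcb10, which is tied to mitoferrin-1, gave 0.38, with limma adjusted p of 0.797 and 0.530. Without that library they gave -0.10 and 0.05.

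Iron-sulfur assembly shares mitochondrial iron with haem. Of its 15 tested genes 11 were higher and 4 lower in busulfan with L.J. than in busulfan, with a median of 0.04. None passed the test, and 3 were higher and 1 lower at an unadjusted p under 0.05. The 1 lower gene was Hspa9, the mitochondrial chaperone mortalin, at 75.6, 75.1 and 84.6 FPKM in busulfan with L.J. and 89.4, 103 and 103 FPKM in busulfan. Those groups did not overlap, and how many of all genes were lower in this way was not counted with all 12 libraries. With busulfan library 1 left out, 18.1% of all genes were. The groups differed by -0.33 on the log2 scale (SE 0.10, limma adjusted p = 0.0969). Without busulfan library 1 Hspa9 passed, at -0.40 (SE 0.10, limma adjusted p = 0.0461), the 1 of the 15 genes that did where 5.77% of all genes passed, with 8 higher and 7 lower and a median of 0.04. Bola3 gave 0.65 and Iba57 0.55, both late-acting factors of the assembly, with limma adjusted p of 0.101 and 0.138. Leaving out busulfan library 1 gave 0.65 for Bola3 and 0.36 for Iba57.

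Of 18 tested genes of iron uptake, storage and control, 15 were higher and 3 lower in busulfan with L.J. than in busulfan, with a median of 0.19. None passed the test, and 4 were higher at an unadjusted p under 0.05. Slc40a1, the iron exporter ferroportin, was at 104, 116 and 87.5 FPKM in busulfan with L.J., and 60.8, 100.3 and 55.7 FPKM in busulfan, with a log2 difference of 0.54 (limma adjusted p = 0.168). Ncoa4, the receptor that sends ferritin to lysosomes, gave 0.49 (limma adjusted p = 0.1299), and Bmp6, a ligand through which iron raises hepcidin, 0.48 (limma adjusted p = 0.102). Slc40a1, Ncoa4 and Bmp6 gave 0.44, 0.49 and 0.45 without busulfan library 1. Tfrc, the transferrin receptor through which red-cell precursors take up iron, gave 0.24 (limma adjusted p = 0.721), and -0.13 without busulfan library 1. Without that library 11 of the 18 were higher and 7 lower, with a median of 0.12 and none past the test, and 4 were higher and 2 lower at an unadjusted p under 0.05.

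Of 13 tested genes of haem breakdown and sensing, 8 were higher and 5 lower, with a median of 0.11. None passed the test, and 2 were higher and 1 lower at an unadjusted p under 0.05. Hmox1, the haem oxygenase that opens the ring, was at 371, 304 and 317 FPKM in busulfan with L.J., and 173, 341 and 208 FPKM in busulfan, with a log2 difference of 0.51 (limma adjusted p = 0.186). Blvrb, a biliverdin reductase that is abundant in red cells, gave 0.69 (limma adjusted p = 0.174). Hmox1 gave 0.31 and Blvrb 0.42 without busulfan library 1. Eif2ak1, the kinase through which low haem slows globin translation, gave 0.27 (limma adjusted p = 0.629), and -0.15 without busulfan library 1. Hp, haptoglobin, was at 9.01, 8.16 and 7.70 FPKM in busulfan with L.J. and 228, 50.3 and 7.27 FPKM in busulfan, high in the libraries with high neutrophil scores, as Alas1 was. Its log2 difference was -2.31 (limma adjusted p = 0.174), and -1.15 without busulfan library 1. Without that library 8 of the 13 were higher and 5 lower, with a median of 0.06 and none at an unadjusted p under 0.05.

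In busulfan against control, none of these 64 related genes passed the test, and 1 was higher and 1 lower at an unadjusted p under 0.05. None passed without busulfan library 1, and 0 were higher and 1 lower at that level. Globin genes, whose chains carry the haem, had means higher in busulfan with L.J. than in busulfan for 6 of 6, with a median log2 difference of 1.57. None passed the test, and 4 were at an unadjusted p under 0.05. Leaving out busulfan library 1, 6 of 6 were higher with a median of 1.56, and 2 were at that level. Globin levels varied widely inside groups, with a score of 12.2, 11.5 and 12.2 in busulfan with L.J., 10.7, 9.26 and 11.5 in busulfan, 11.5, 12.4 and 12.02 in L.J., and 9.38, 11.99 and 10.9 in control. Red pulp macrophage genes, 12 in number, had a median of 0.29 for busulfan with L.J. against busulfan, with none past the test and 4 at an unadjusted p under 0.05. The median was 0.14 without busulfan library 1, with 1 at that level.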

How the data were processed

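Each gene of the deposited table has 1 FPKM value per library, per the file headers. Bowtie 0.12.2 and mm10 stand in the submitters' processing notes with no role. Counting tool, annotation and strand handling are not stated in any source used here. Without read numbers the depth is unknown. Since no label ties libraries to single mice, p-values measure the spread between libraries, which may be technical.

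Tests used log2(FPKM + 1), which understates differences of weak genes. Of 21004 genes, 13138 reached a group mean of 1 FPKM and were tested, among them all 9 of interest. In R 4.3.3, limma 3.58.1 (trend and robust options) took all 12 libraries into a model of 4 group means, which share an estimate of the spread. Each of 6 contrasts was adjusted by Benjamini-Hochberg, with a threshold of 0.05. The fit was also run on simulated data with independent normal noise for each gene. That simulation held no outlying library and no shift of tissue makeup, so it does not speak to those features here. Plots used Python 3.11.15 and matplotlib 3.10.9.

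The genes and lists were chosen with earlier results of these data known. Named beside the 9 are, from each of 4 related lists, the 3 genes with the smallest p in busulfan with L.J. against busulfan, some of 14 fixed markers, and the 5 genes most like Alas2 by each of 2 correlations. Apex2 was named after its overlap with Alas2 was seen. Coordinates of genes are RefSeq's on GRCm38.p6. Alas1, Uros, Cpox, Ppox and Slc25a37 also overlap other annotated genes, whose reads may not be told apart. Some genes are not reported here.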

Additional observations from a re-analysis of the deposited data

How the results depend on the processing

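The cause of each shift below was not tested. For busulfan with L.J. against busulfan, 1 member passed with quantile normalization, where 2.29% of all genes did, and 1 with scaling without acinar and globin genes, where 5.97% did (Alad in both). With library weights 2 passed (Alas1 and Alad), where 15.1% of all genes did, and leaving out 1 library gave 0 to 3 (Alas1, Alas2 and Alad without busulfan 3, where 10.4% did). Of the settings chosen after seeing the data, the erythroid marker score as a covariate gave 1 (3.41% of all genes) and the same without busulfan library 1 gave 2 (9.69%). For busulfan against control, leaving out 1 library gave 0 to 1 (Alas1 without busulfan 3, where 6.27% of all genes passed). For busulfan with L.J. against control, the erythroid covariate without busulfan library 1 gave 2 (3.71%). The other counts of members, over all alternatives run, stayed at 0.

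Log2 differences changed sign as follows. The fit without the 3 libraries of high acinar score (busulfan 1, busulfan 2 and L.J. 3) leaves the busulfan group with 1 library, assumed to vary like the other groups, so its signs rest on busulfan 3. For busulfan against control it gave -0.081 for Alas1 and 0.11 for Alas2. The acinar score as a covariate gave -0.12 for Alas1, 0.34 for Alas2, 0.11 for Uros, 0.13 for Cpox, 0.24 for Fech and 0.32 for Slc25a37. The erythroid covariate gave 0.11 for Alas2, 0.052 for Uros and 0.10 for Fech, and without busulfan library 1 also 0.092, 0.0042 and 0.047. Leaving out 1 library gave -0.55 to 0.065 for Alas2 and -0.68 to 0.015 for Fech. For busulfan with L.J. against busulfan, Cpox and Slc25a37 gave -0.32 and -0.17 with library weights, -0.30 and -0.10 with those 3 libraries left out, and -0.54 and -0.49 with the acinar covariate. They gave -0.42 and -0.27 with the erythroid covariate, and -0.47 and -0.30 without busulfan library 1 as well. Leaving out 1 library gave -0.41 to 0.58 for Cpox and -0.23 to 0.76 for Slc25a37. With the acinar covariate, Cpox in L.J. against control gave 0.19, and the interaction gave -0.17 for Alas2, 0.63 for Alas1 and -0.051 for Fech.

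With the replicate number as a block, 0 members passed in any comparison, and 55 genes of all passed for busulfan with L.J. against busulfan, where 218 did without the block. Pairs of libraries with the same number had correlations of their deviations from -0.31 to 0.33, with 8 of 18 pairs over 0.1. For pairs of other numbers these ran from -0.40 to 0.37, with 11 of 36 over 0.1. Such overlapping ranges cannot show whether the numbers pair the libraries, and the labels do not say. Over all alternatives the genes passing numbered 0 to 1989 in that comparison. The FPKM values carry no depth, 3 libraries a group are few, and leaving out busulfan library 1 turned the sign of 4 of the 18 differences against busulfan or between busulfan and control.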
